A study of Mus musculus with 12 samples.

Results

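The respiratory chain and the ATP synthase were examined through 91 nuclear genes of their subunits and of complex I assembly in hematopoietic stem cells (HSCs) of the mouse, which live in bone marrow and renew the blood. The genes were those with a probe set annotated to 1 gene symbol beginning with Nduf, Uqcr, Cox4 to Cox8 or Atp5, or naming Sdha to Sdhd, Cycs or Cyc1, out of 19935 genes measured. Of the 91, 86 had a mean signal above the median gene and were tested within the 9967 genes above it. The study treated male and female mice aged 2 to 3 months subcutaneously with 100 µL of corn oil, either alone or carrying 2 µg of estradiol (E2), the main circulating estrogen. The sources used here give neither the length of the treatment nor the strain of mouse. Lineage-, Sca-1+, c-kit+, CD150+, CD48- cells were sorted, 5000 to 7000 per sample, and their amplified RNA was hybridised to Affymetrix Mouse Gene 1.0 ST arrays. The design has 4 groups (male oil, male E2, female oil and female E2) of 3 arrays each, which the submitters call biological replicates taken from 3 mice. All values are probe set intensities on a linear scale, and differences are in log2 (intensity + 1), where 1 unit is a doubling.

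Complexes I and II take electrons from NADH and succinate and pass them through ubiquinone to complex III, and the small soluble protein cytochrome c carries them on to complex IV, which reduces oxygen. Complexes I, III and IV pump protons across the inner mitochondrial membrane, and complex V, the ATP synthase, makes ATP from their return. Most subunits are encoded in the nucleus and a few in mitochondrial DNA. HSCs at rest are known for low mitochondrial respiration and a reliance on glycolysis, and respiration rises when they enter the cell cycle and differentiate.

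Markers of the sort were read first. *Slamf1* (CD150) read 349.9 to 686, *Kit* 1820.0 to 2756 and *Procr* 549.8 to 923, and all 8 measured HSC markers lay above the filter, an intensity of 182. *Cd48*, on which cells were excluded, read 62.8 to 116, below it. Several marker lists differed between E2 and oil arrays. The 6 megakaryocyte and platelet genes summed to 3434 to 3751 in male oil and 2672 to 3029 in male E2 arrays, and to 3428 to 3771 in female oil and 2083 to 2881 in female E2 arrays, with none at 0. Of these, *Pf4*, *Plek*, *Gp5* and *Itga2b* fell, *Gp9* rose by 0.51 and *Vwf* had 0.28 without a call, so the members went both ways. The 3 multipotent progenitor genes summed to 2192 to 2585 in male oil and 1826 to 1909 in male E2 arrays, and to 2156 to 2659 in female oil and 1684 to 1942 in female E2 arrays, and both tested members, *Flt3* and *Cd34*, fell, with -1.10 and -0.29. The summed 8 HSC markers ran from 9538 to 9656 in male oil and from 8504 to 8833 in male E2 arrays. They ran from 8633 to 9427 in female oil and from 7513 to 8667 in female E2 arrays, which overlap. Averaged over the sexes, 6 of the 8 had an effect below 0, with a median of -0.23. Of the 8, *Kit* and *Procr* were called lower, or 25%, against 5.78% of all genes. The 6 T and NK cell genes summed to 1170.2 to 1378 in male oil and 836 to 929.6 in male E2 arrays, and to 1115 to 1325 in female oil and 917 to 959 in female E2 arrays. *Nkg7* alone fell, with -1.67, and the other 5 had differences from -0.01 to 0.12. In other lists, 1 of 7 tested myeloid genes was called higher, with 2.88. The other 6 had effects below 0, and 1 of them was called lower. Called higher were also 1 of 3 tested stroma genes, with 0.90, and the 1 tested erythroid gene, with 0.36. The 1 tested B cell gene was called lower, with -0.41. Over all tested genes 3.12% were called higher and 5.78% lower. The part of these lists in the values below was not tested, and in sorted pools fewer cells of a type and less RNA per cell cannot be told apart.

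One library stood apart. In female E2 replicate 1 a list of 20 S phase genes, which act when cells copy their DNA, averaged 0.75 above the male oil mean on the log2 scale, against 0.14 and 0.05 in the other female E2 arrays and 0.31, 0.51 and 0.39 in the male E2 arrays. The respiratory genes of the same array averaged 0.18 above the male oil mean, more than in any of the other 11 arrays, which ranged from -0.03 to 0.07. The part of S phase genes in the respiratory values was not tested, and results for females are given with and without this library.

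Differences between E2 and oil were small for nearly all respiratory genes. Averaged over the sexes, 3 of the 86 tested genes rose (*Ndufb6*, *Ndufaf5* and *Cycs*), 1 fell (*Cox6b2*) and 82 did not pass the threshold, an adjusted p under 0.05 from limma with Benjamini-Hochberg adjustment over 9967 genes. Among all genes tested, 8.9% were called in this comparison, 3.12% higher and 5.78% lower, and the 4.65% called here lies below that share. At an unadjusted p under 0.05, 11 respiratory genes were higher and 3 lower, where 10.5% and 14.1% of all genes were. The intervals were narrow: the 95% interval of the effect lay inside ±0.5 log2 units for 84 of 86 genes, all but *Cycs* and *Cox6b2*, and inside ±0.25 for 51, or 59.3%, against 43.6% of all genes.

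The small effects lay mostly on the positive side. The effect was above 0 for 69 of 86 genes (80.2%), against 46.7% of all genes tested, with a median of 0.07 (range -0.39 to 0.38) against -0.01. The count was 68 (79.1%) with each array centred on its median, with 43.3% of all genes. It was 64 (74.4%) without female E2 replicate 1, with 45.4% of all genes, and the median there was 0.05. In males 66 genes (76.7%) had an effect above 0, with 50% of all genes, and in females 70 (81.4%), with 44.2%. The female count was 54 (62.8%) without female E2 replicate 1, with 40.8% of all genes. It was 50 (58.1%) with each array centred on its median, with 31.9% of all genes. The male count was 55 (64%) after quantile normalization, with 49.8% of all genes, and 72 (83.7%) with arrays centred, with 58%. The 86 genes are read from the same arrays and are not separate observations. Whether genes of like intensity have a similar share was not tested.

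**Figure D1:**
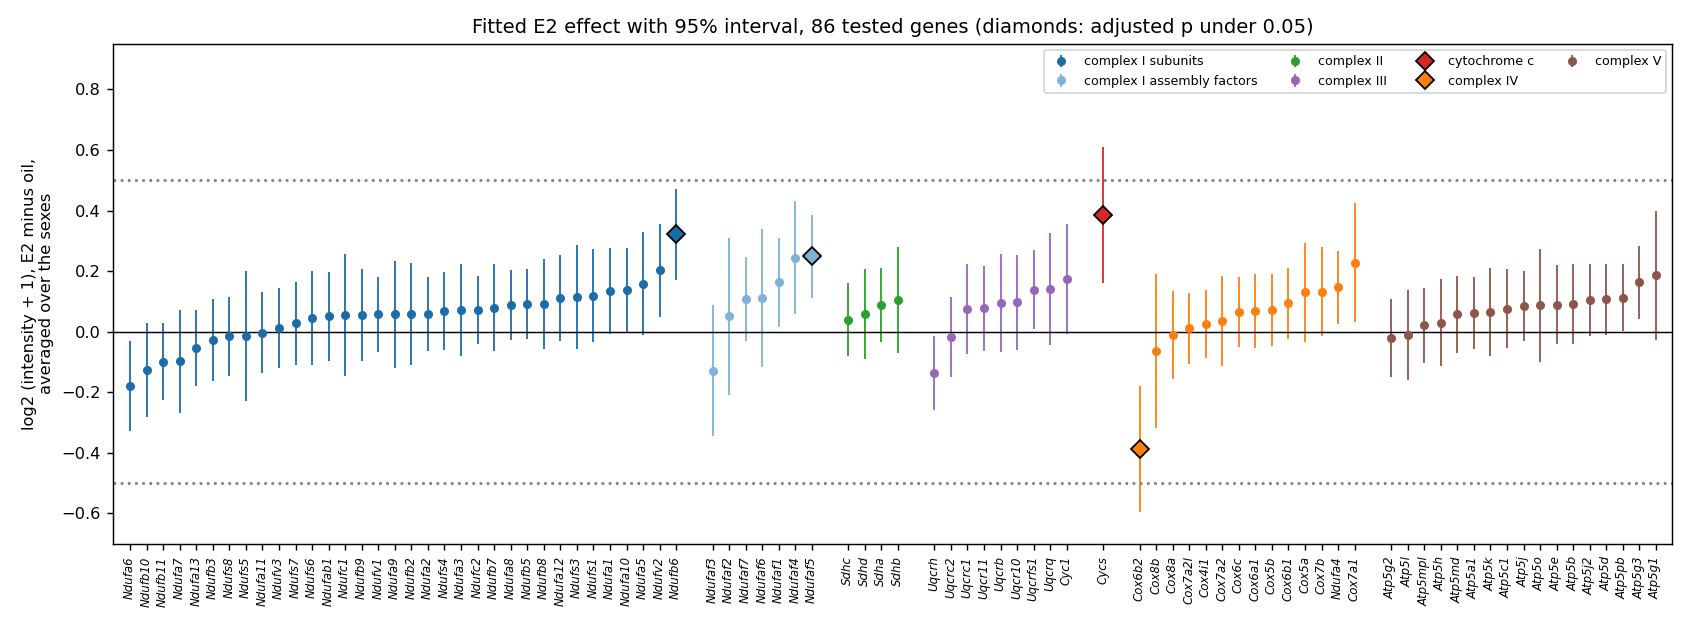
Fitted E2 effect on the 86 tested genes, averaged over the sexes, in log2 (intensity + 1), ordered by complex and by size. Points are limma estimates with 95% intervals, diamonds mark the 4 genes with an adjusted p under 0.05, and dotted lines stand at ±0.5. The intervals of *Cycs* and *Cox6b2* alone cross a dotted line.

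Sequences upstream of the 4 called genes are shown because these genes passed the threshold. They are the 250 bases before the RefSeq gene start (assembly GRCm38.p6, 5′ to 3′ on the gene's strand, - for minus and + for plus), with capitals marking a match to TGACGTCA, the cyclic AMP response element, or to GCATGCGC, the core of the NRF-1 site. The windows are chr4:40279422-40279671 on the - strand, chr2:140170396-140170645 on the + strand, chr6:50566570-50566819 on the - strand and chr7:4753095-4753344 on the - strand.
Ndufb6: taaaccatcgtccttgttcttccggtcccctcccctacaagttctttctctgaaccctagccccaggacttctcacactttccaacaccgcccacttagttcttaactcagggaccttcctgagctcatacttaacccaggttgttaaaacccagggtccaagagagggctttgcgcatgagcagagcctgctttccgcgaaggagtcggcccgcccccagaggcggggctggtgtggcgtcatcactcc
Ndufaf5: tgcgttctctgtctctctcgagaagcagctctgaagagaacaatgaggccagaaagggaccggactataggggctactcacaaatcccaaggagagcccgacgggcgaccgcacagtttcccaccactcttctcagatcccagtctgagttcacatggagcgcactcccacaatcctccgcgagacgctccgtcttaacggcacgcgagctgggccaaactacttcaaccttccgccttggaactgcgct
Cycs: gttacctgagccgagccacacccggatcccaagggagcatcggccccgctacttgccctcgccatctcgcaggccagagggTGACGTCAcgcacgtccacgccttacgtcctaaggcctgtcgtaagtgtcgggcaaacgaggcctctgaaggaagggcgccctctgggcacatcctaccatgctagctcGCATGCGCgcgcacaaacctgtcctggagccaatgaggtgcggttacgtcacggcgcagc
Cox6b2: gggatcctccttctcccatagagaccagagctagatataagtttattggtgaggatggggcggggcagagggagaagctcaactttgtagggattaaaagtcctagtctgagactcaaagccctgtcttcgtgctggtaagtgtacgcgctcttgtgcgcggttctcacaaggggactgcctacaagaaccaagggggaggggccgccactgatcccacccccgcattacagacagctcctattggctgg

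Complex I oxidises NADH. All 34 of its measured subunit genes passed the filter, 25 had an effect above 0, and the median was 0.06 averaged over the sexes, 0.06 in males and 0.07 in females (0.02 without female E2 replicate 1). The 14 genes of the matrix arm, which holds the flavin and the iron-sulfur clusters, and the 20 other subunits both had a median of 0.06. One subunit rose: *Ndufb6*, an accessory subunit of the membrane arm. *Ndufb6* read 899, 886 and 976 in the male oil arrays and 1129.7, 1196 and 1168 in the male E2 arrays. In females it read 1022, 859 and 993 under oil and 1339, 1142 and 1070.2 under E2. Each E2 array of either sex was above every oil array of its sex. The group means (± SD, n = 3) were 920.1 ± 48.5 and 1165 ± 33.4 in males and 958 ± 86.9 and 1184 ± 139 in females, oil before E2. The averaged effect was 0.32 ± 0.07 (SE, limma adjusted p = 0.013), with a 95% interval of 0.17 to 0.47. It was 0.34 in males (adjusted p = 0.122) and 0.30 in females (adjusted p = 0.116), and it passed the threshold under each of the 22 alternative settings tried (adjusted p from 0.00552 to 0.0418).

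The other subunits had smaller effects. *Ndufv2*, a 2Fe-2S protein of the NADH-binding module, had an averaged effect of 0.20 ± 0.07 (SE, limma adjusted p = 0.0977). *Ndufs1*, the largest subunit and a carrier of iron-sulfur clusters, had 0.12 ± 0.07 (SE, limma adjusted p = 0.335). *Ndufv1*, which binds NADH and the flavin, had 0.06 ± 0.06 (SE, limma adjusted p = 0.598). The lowest effect of a complex I subunit belonged to *Ndufa6*, a small accessory subunit of the LYR motif family, at -0.18 ± 0.07 (SE, limma adjusted p = 0.124). None of these passed the threshold.

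Ndufaf genes encode factors that assemble complex I and do not stay in it. Of the 7, 6 had an effect above 0 and 3 had an unadjusted p under 0.05, with medians of 0.11 averaged, 0.11 in males and 0.19 in females (0.08 without female E2 replicate 1). One of them rose: *Ndufaf5*, an enzyme that hydroxylates an arginine of the subunit Ndufs7. *Ndufaf5* read 273, 327 and 329 in the male oil arrays and 353, 328 and 366 in the male E2 arrays. In females it read 293, 309.8 and 294 under oil and 390.0, 364 and 366 under E2. Every female E2 array was above every female oil array, while in males the lowest E2 array lay just under the highest oil array. The group means (± SD, n = 3) were 309.5 ± 32.0 and 349 ± 19.2 in males and 299 ± 9.42 and 373 ± 14.3 in females, oil before E2. The averaged effect was 0.25 ± 0.06 (SE, limma adjusted p = 0.0288), and 8 of 22 alternative settings did not call it, with adjusted p up to 0.0805. Among these were the fits without male oil replicate 1 (0.0566), male E2 replicates 1 (0.0629) and 3 (0.0728), and female oil replicates 1 (0.0578), 2 (0.0534) and 3 (0.0645). *Ndufaf4* and *Ndufaf1*, further assembly factors, had averaged effects of 0.24 ± 0.09 (SE, limma adjusted p = 0.0959) and 0.16 ± 0.07 (SE, limma adjusted p = 0.158).

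**Figure D2:**
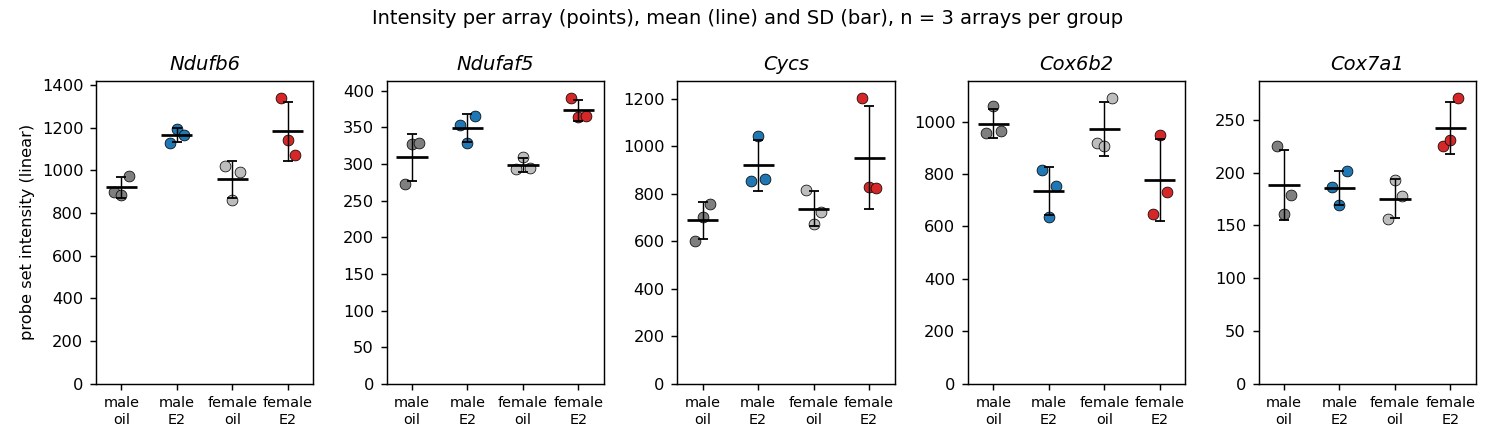
Probe set intensity on a linear scale from 0 for the 4 genes called in the averaged comparison and for Cox7a1, which was tested only because of its high female E2 arrays. Points are arrays, lines are group means and bars are SD (n = 3). *Ndufb6* and *Cycs* are higher in every E2 array than in every oil array of the same sex.

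Complex II, succinate dehydrogenase, is also an enzyme of the TCA cycle. Its 4 genes gave averaged effects of 0.09 for *Sdha*, the flavoprotein, 0.10 for *Sdhb*, the iron-sulfur protein, and 0.04 and 0.06 for the membrane anchors *Sdhc* and *Sdhd*, and none passed the threshold. The median was 0.14 in males and 0.03 in females, and in females it was -0.04 without female E2 replicate 1, -0.03 with each array centred on its median and -0.01 when female oil replicate 2 was left out. Complex III had 9 genes, including *Cyc1*, 7 with an effect above 0 and a median of 0.09 averaged, 0.09 in males and 0.08 in females (0.00 without female E2 replicate 1). *Cyc1*, cytochrome c1, had 0.17 ± 0.08 (SE, limma adjusted p = 0.221); *Uqcrfs1*, the Rieske iron-sulfur protein, had 0.14 ± 0.06 (SE, limma adjusted p = 0.176); and *Uqcrc1*, a core subunit, had 0.08 (adjusted p = 0.548). *Uqcrh*, the hinge protein beside cytochrome c1, had -0.14 ± 0.06 (SE, limma adjusted p = 0.151).

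*Uqcrh* read 3392, 3927 and 3506 in male oil, 3256, 3247 and 3299 in male E2, 3569.8, 3604 and 3662 in female oil and 3114, 3433 and 3345 in female E2 arrays. Each E2 array lay below every oil array of its sex. A lack of overlap in both sexes occurred in 4 respiratory genes, 3 higher (*Ndufb6*, *Cycs* and *Atp5g3*) and 1 lower, against 2.32% and 4.88% of all genes.

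Cytochrome c, the electron carrier between complexes III and IV, also triggers apoptosis when it leaves the mitochondrion. *Cycs*, its gene, rose. *Cycs* read 603, 703 and 757 in the male oil arrays and 855, 1045 and 861 in the male E2 arrays. In females it read 816, 673 and 724 under oil and 1203, 830.1 and 824 under E2. Every E2 array was above every oil array of its sex, and female E2 replicate 1 was the highest of all 12. The group means (± SD, n = 3) were 688 ± 78.2 and 920.2 ± 108 in males and 738 ± 72.5 and 952 ± 217 in females, oil before E2. The averaged effect was 0.38 ± 0.10 (SE, limma adjusted p = 0.0368), with a 95% interval of 0.16 to 0.61, the highest effect among the 86 genes. It was 0.42 in males (adjusted p = 0.199) and 0.35 in females (adjusted p = 0.219), where leaving out female E2 replicate 1 gave 0.17. The averaged effect without that array was 0.29 and still passed the threshold, whereas 12 of 22 alternative settings did not call it, with adjusted p up to 0.0977. Among these were the fits without male oil replicate 1 (0.0834) or 2 (0.0695), any male E2 array (0.0520 for replicate 1, 0.0961 for 2 and 0.0581 for 3), or female oil replicates 2 (0.0977) and 3 (0.0782). *Cycs* has processed copies in the genome that could share its signal, so its level is uncertain. A second *Cycs* probe set, with a mean intensity of 807 against 824 for the one used, gave 0.39. The last of the 3 *Cycs* probe sets had a mean of 78.4, under the filter, and gave 0.42. Which of them reads the gene on chromosome 6, whose upstream sequence is shown, was not tested. The rise called here is therefore that of a probe set annotated to *Cycs*.

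Complex IV, cytochrome c oxidase, has subunits with tissue-specific isoforms. Of 19 genes measured, counting *Ndufa4* with them, 14 passed the filter. *Cox4i2*, *Cox6a2*, *Cox7b2*, *Cox8c* and *Ndufa4l2*, which are isoforms of lung, muscle, testis or hypoxic cells, did not. Of the 14, 11 had an effect above 0, and the median was 0.07 averaged, 0.02 in males (-0.01 after quantile normalization and -0.00 without male E2 replicate 1) and 0.10 in females (0.06 without female E2 replicate 1). The ubiquitous isoform genes had averaged effects near 0, with *Cox4i1* at 0.03, *Cox6a1* at 0.07, *Cox7a2* at 0.04, *Cox7a2l* at 0.01, *Cox8a* at -0.01 and *Cox6b1* at 0.09. *Ndufa4* had 0.15 ± 0.06 (SE, limma adjusted p = 0.12).

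One complex IV gene fell: *Cox6b2*, the testis isoform of subunit 6b. *Cox6b2* read 957, 1058 and 962 in the male oil arrays and 814, 637 and 754 in the male E2 arrays. In females it read 918, 908 and 1089 under oil and 646, 949.8 and 732 under E2. All male E2 arrays lay below all male oil arrays, and in females 1 E2 array, replicate 2, lay within the oil range. The group means (± SD, n = 3) were 992 ± 56.5 and 735 ± 90.3 in males and 972 ± 102 and 776 ± 157 in females, oil before E2. The averaged effect was -0.39 ± 0.10 (SE, limma adjusted p = 0.025), with a 95% interval of -0.60 to -0.18. It was -0.44 in males (adjusted p = 0.153) and -0.34 in females (adjusted p = 0.198), and 4 of 22 alternative settings did not call it. These were the fit with no filter (adjusted p = 0.0602) and those without male oil replicate 2 (0.0659), male E2 replicate 2 (0.0694) and female oil replicate 3 (0.0665).

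*Cox7a1*, the heart and muscle isoform of subunit 7a, read 225, 161 and 179 in male oil, 187, 169 and 201 in male E2, 156, 193 and 178 in female oil and 225, 231 and 271 in female E2 arrays. Every female E2 array exceeded every female oil array, while the male groups overlapped and the values lay on both sides of the filter. The effect was 0.46 ± 0.13 (SE, limma adjusted p = 0.0688) in females and -0.01 ± 0.13 (SE, limma adjusted p = 0.986) in males, and the difference of the responses was 0.47 ± 0.18 (SE, limma adjusted p = 0.907). Its mean over the other 3 groups lay under the filter, so it was tested only through the female E2 arrays where it is high. Its p values therefore cannot be used to judge whether it differs. It was the 1 gene of the 86 tested for which this held. *Cox8b*, another muscle isoform, had -0.28 in males and 0.15 in females, with no call.

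Complex V, the ATP synthase, had 17 genes, all above the filter, 15 with an effect above 0, and none called. The median was 0.08 averaged, 0.09 in males and 0.08 in females (0.02 without female E2 replicate 1). The 5 genes of the catalytic F1 part and the 4 of the peripheral stalk were all above 0, with medians of 0.09 and 0.08, and 6 of the 8 of the membrane part were, with a median of 0.06. The catalytic subunits gave 0.06 for *Atp5a1* and 0.09 for *Atp5b*. *Atp5g3*, which encodes subunit c of the rotating ring, read 2801, 2571 and 2681 in male oil, 2867, 3149.8 and 2937 in male E2, 2747, 2597 and 2563 in female oil and 3155, 2910.0 and 2851 in female E2 arrays. It was higher in each E2 array than in each oil array of the same sex, with 0.16 ± 0.06 (SE, limma adjusted p = 0.0907). *Atp5pb*, subunit b of the peripheral stalk, had 0.11 ± 0.05 (SE, limma adjusted p = 0.197).

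**Figure D3:**
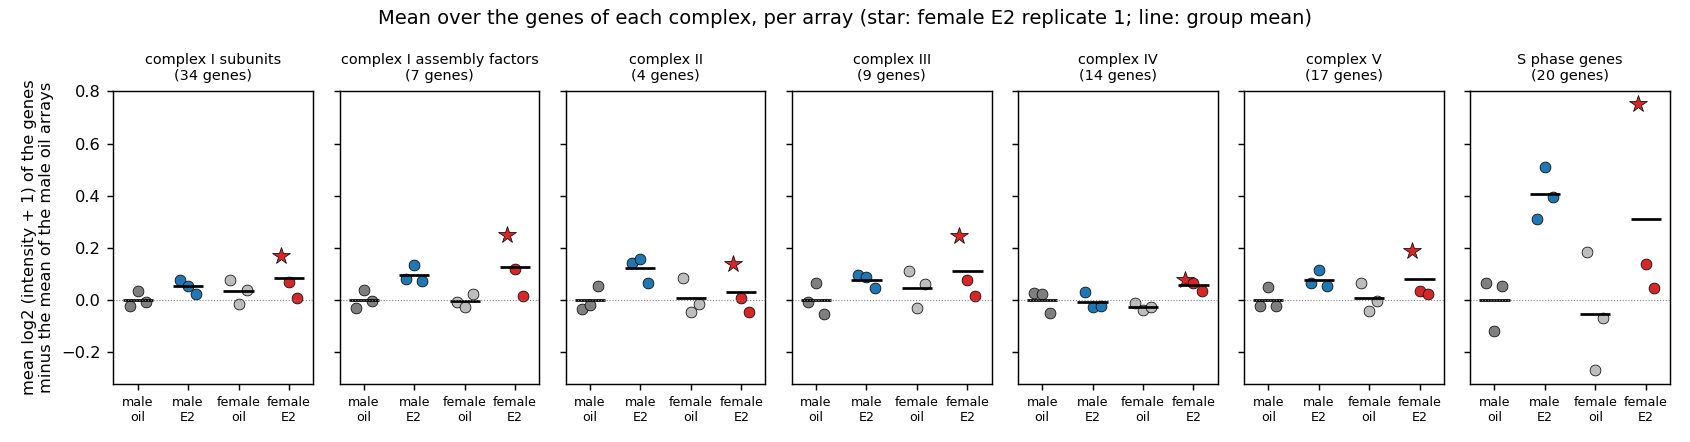
Mean log2 (intensity + 1) over the genes of each complex and of the S phase list in each array, minus the mean of the male oil arrays. Points are arrays, lines are group means and the star is female E2 replicate 1, which reads highest of all 12 arrays for complex I subunits, assembly factors, III, IV and V and for S phase genes.

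The complex means of the arrays were close together. Complex I subunits averaged 0.08, 0.05 and 0.02 in the male E2 arrays and 0.17, 0.07 and 0.01 in the female E2 arrays, relative to male oil. Complex V averaged 0.06, 0.11 and 0.05 in males and 0.19, 0.04 and 0.02 in females under E2. On the same scale the female oil arrays averaged 0.03 ± 0.05 (SD, n = 3) for complex I subunits and 0.01 ± 0.05 for complex V. The male oil arrays, with a mean of 0, had SDs of 0.03 and 0.04. The spread among arrays of a group was also small: the median within-group SD of a respiratory gene was 0.10, against 0.14 over all genes, and it was 0.12 in the female E2 group against 0.06 to 0.08 in the other groups.

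Neither sex alone gave a call among the 86 genes. In males limma called 0 (background 1.43%, with 0.572% higher and 0.863% lower), with 6 higher and 1 lower at an unadjusted p under 0.05, where 7.48% and 7.26% of all genes were, and a lowest adjusted p of 0.122, that of *Ndufb6*. Without female E2 replicate 1 *Ndufb6* was called in males (adjusted p = 0.0476), in a fit that called 161 of all genes higher and 167 lower. In females it called 0 (background 3.56%, with 0.813% higher and 2.75% lower), with 8 higher and 2 lower at an unadjusted p under 0.05, where 6.12% and 12.5% were, and a lowest adjusted p of 0.0688, that of *Cox7a1*. Both this count and those of groups that do not overlap in females include *Cox7a1*, which entered the test only through its high group. Groups did not overlap for 17 genes higher and 2 lower in males, where 13.6% and 13% of all genes did so, and for 13 and 5 in females, against 6.95% and 13.1%. Across the 86 genes the male and female effects, which come from separate arrays, had a Pearson r of 0.54 and a Spearman rho of 0.40, given as a description. Over all 9967 genes r was 0.63. Without female E2 replicate 1, r was 0.25 for the respiratory genes and 0.52 for all genes.

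**Figure D4:**
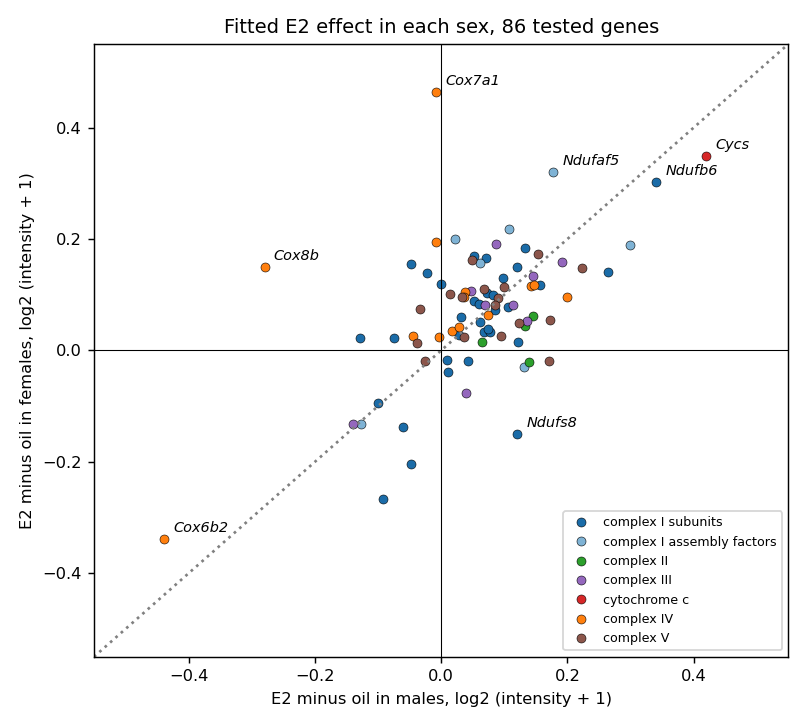
E2 effect in males (horizontal) against that in females (vertical) for the 86 tested genes, in log2 (intensity + 1), coloured by complex, with a dotted line of equal effects. Of the genes, 58 lie above 0 in both sexes (67.4%), 8 below 0 in both (9.3%) and 20 on opposite sides (23.3%). Over all genes the shares are 30%, 35.7% and 34.3%. Without female E2 replicate 1 the counts are 43 (50%), 9 (10.5%) and 34 (39.5%), and the shares over all genes 25%, 34.3% and 40.7%.

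No respiratory gene passed the threshold for a difference between the female and the male response. Here limma called 0 (background 0.01%), with 1 higher (*Cox7a1*, tested only through its high group) and 1 lower (*Ndufs8*) at an unadjusted p under 0.05, where 2.17% and 3.2% of all genes were. The difference was above 0 for 44 of 86 genes, and for 40.5% of all genes. The next smallest p belonged to *Cox6b1*, with 0.20 ± 0.11 (SE, limma adjusted p = 0.954). The intervals of this difference lay inside ±0.5 for 89.5% of respiratory genes, against 60.3% of all genes. They lay inside ±0.25 for 5.81% of respiratory genes, against 0.983% of all genes. For most respiratory genes the intervals therefore bound the difference at 0.5 but not at 0.25. The count of differences above 0 depended on the setting. It was 30 (34.9%) without female E2 replicate 1, with 39.2% of all genes. With each array centred on its median it was 19 (22.1%), with 22.3% of all genes. After quantile normalization it was 63 (73.3%), with 43.9%.

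No respiratory gene was called between the sexes. Under oil limma called 0 respiratory genes (background 0.0401%), with 1 higher and 0 lower in females at an unadjusted p under 0.05, where 2.39% and 2.6% of all genes were. The arrays did not overlap for 3 genes higher and 2 lower, against 5.65% and 7.29% of all genes, and 53 of 86 differences were above 0, against 49.2%. Here the smallest p values belonged to *Ndufs8* at 0.19 ± 0.09 (SE, limma adjusted p = 0.984), *Ndufaf6*, a complex I assembly factor, at -0.26 ± 0.15 (SE, limma adjusted p = 0.997), and *Atp5pb* at 0.12 ± 0.07 (SE, limma adjusted p = 0.997). Under E2 it called 0 (background 0.01%), with 1 higher (again *Cox7a1*) and 0 lower at an unadjusted p under 0.05, where 2.65% and 6.39% of all genes were. The arrays did not overlap for 4 genes higher and 2 lower, against 4.1% and 8.72%, and 55 differences were above 0, against 38.7%. The smallest p values belonged to *Cox7a1* at 0.38 ± 0.13 (SE, limma adjusted p = 0.455), *Ndufb3*, an accessory subunit of complex I, at 0.17 ± 0.09 (SE, limma adjusted p = 0.599), and *Ndufaf1* at 0.17 ± 0.10 (SE, limma adjusted p = 0.613). Without female E2 replicate 1, 34 of the differences under E2 (39.5%) were above 0, with 37.2% of all genes. With each array centred on its median 31 (36%) were, with 26.4% of all genes. After quantile normalization 69 (80.2%) were, with 45.6%.

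Genes around the chain were read from lists of their own. Of the mitochondrial DNA-encoded subunits, *ND3* of complex I and *COX2* of complex IV were measured and tested, and neither passed the threshold, with a median effect of 0.02. Among 30 tested assembly factors outside the symbol rule, 1 (3.33%) fell, against 5.78% of all genes, and the median was 0.01. It was *Uqcc3*, which assembles complex III, at -0.27 (limma adjusted p = 0.0187). None of the 10 coenzyme Q synthesis genes, 16 TCA cycle genes, 12 genes of mitochondrial DNA maintenance or 7 transcriptional regulators passed the threshold in this averaged comparison, with medians of 0.06, 0.05, 0.01 and 0.04. *Ppargc1a*, *Ppargc1b*, *Esrra*, *Esrrg* and *Ppara*, regulators of mitochondrial genes, were below the filter. The S phase list had 5 of 20 genes called higher (*Mcm5*, *Cdc6*, *Tk1*, *Uhrf1* and *Fen1*) and a median of 0.34. Among all genes 3.12% were called higher. Groups did not overlap for 18 of its genes higher in males and 1 in females, against 13.6% and 6.95% of all genes. The averaged and female values include female E2 replicate 1, where this list read highest, and are not given without it.

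Of the upstream sequences of the 4 called genes, that of *Cycs* alone held a match to a searched motif: the cyclic AMP response element TGACGTCA starts at -169 and the NRF-1 core GCATGCGC at -60 from the gene start, and both motifs were added to the search after this sequence had been read. Over all 32851 windows of 300 bases, 250 before and 50 after a gene start, both strands searched, TGACGTCA occurred in 1.79% and GCATGCGC in 2.71%. Among 79 windows of 74 matched respiratory genes, 6.33% held the first and 16.5% the second, which includes the NRF-1 site below wherever that occurs. The full NRF-1 site, bound by the nuclear respiratory factor that activates many of these genes, occurred in 8.86% of the respiratory windows and in 0.971% of all. Stretches of 30 bases around it, capitals marking the site, are shown for all 7 genes that hold it.
Atp5g2: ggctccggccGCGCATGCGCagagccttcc
Atp5k: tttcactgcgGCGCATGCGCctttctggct
Cox6a1: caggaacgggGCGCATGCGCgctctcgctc
Ndufa11: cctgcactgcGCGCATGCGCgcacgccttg
Ndufaf4: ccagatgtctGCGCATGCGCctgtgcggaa
Ndufaf5: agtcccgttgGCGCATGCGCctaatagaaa
Uqcrc1: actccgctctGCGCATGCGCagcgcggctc

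The sites start, relative to the gene start, for *Atp5g2* at -42 (chr15:102671070-102671099, - strand), *Atp5k* at -50 (chr5:108434430-108434459, - strand), *Cox6a1* at -162 (chr5:115349101-115349130, - strand), *Ndufa11* at -60 (chr17:56717692-56717721, + strand), *Ndufaf4* at -113 (chr4:24897960-24897989, + strand), *Ndufaf5* at +17 (chr2:140170652-140170681, + strand) and *Uqcrc1* at +31 (chr9:108936668-108936697, + strand). Of these 7 genes *Ndufaf5* alone was called, with its site after the start, and the averaged effects of the others were -0.02 for *Atp5g2*, 0.06 for *Atp5k*, 0.07 for *Cox6a1*, -0.00 for *Ndufa11*, 0.24 for *Ndufaf4* and 0.08 for *Uqcrc1*. The palindromic estrogen response element, GGTCA and TGACC with 3 bases between them, occurred in 0 of the 79 respiratory windows and in 0.07% of all. The estrogen-related receptor motif AAGGTCA, which can overlap it, occurred in 8.86% and 4.72%, the GABP motif CCGGAAGT in 6.33% and 3.89%, the YY1 motif in 5.06% and 0.633%, and the E-box CACGTG in 8.86% and 7.15%. A match is a run of letters and does not show binding in these cells.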

How the data were processed

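RNA of sorted HSCs was measured on 12 arrays, 3 per group. The authors deposited linear intensity values for 35474 probe sets, from 0.62 to 16147.84, with array medians from 143 to 159. Summarisation, background correction, normalization and software are not stated in the labels or the data used here. Gene symbols came from the platform annotation: 21780 probe sets had 1 symbol, 1605 several and 12089 none. Each gene was read from its brightest probe set. Values were log2-transformed after adding 1 to the deposited intensity, and 9967 genes with a mean above the median gene (log2 7.52, intensity 182) were kept.

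All 12 arrays entered 1 linear model, with a mean for each group, in limma 3.58.1 in R 4.3.3 (8 residual and 5.38 prior degrees of freedom), 2-sided, with Benjamini-Hochberg adjustment within each comparison and a call at an adjusted p under 0.05. The fit was tested on simulated data. The number of arrays limits the precision. Named genes are those called, the 2 smallest p values per complex, the 3 smallest per sex comparison, and a set of core and isoform genes. The members and lists were chosen with earlier results of these data known. Promoter windows came from RefSeq. Alternatives changed the pseudocount, filter, probe set rule, scaling, eBayes settings, array weights, block, compared groups, threshold and arrays. Python 3.11.15 with NumPy 2.4.6, pandas 2.3.3 and matplotlib 3.10.9 was used.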

Additional observations from a re-analysis of the deposited data

Results flagged for a closer look

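*Ndufs8*, an iron-sulfur subunit of complex I, stood out because all E2 arrays moved one way in males and the other way in females. It read 809.9, 923 and 930.2 in male oil, 963, 959 and 968 in male E2, 1099, 997 and 942 in female oil and 928, 874 and 928 in female E2 arrays. Every male E2 array was above every male oil array, and every female E2 array was below every female oil array. The effect was 0.12 in males and -0.15 in females, and the difference of the responses was -0.27 ± 0.12 (SE, limma adjusted p = 0.929), which does not pass the threshold.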

How the results depend on the processing

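Each of the 22 alternative settings kept the sign of the averaged median of all respiratory genes, which lay between 0.05 and 0.09, and none reversed a called gene. Averaged over the sexes, the count of genes called higher was 1 with no filter, 1 with each array centred on its median, 5 with eBayes trend and robust settings, which added *Atp5g3* and *Ndufa4*, and 6 at a threshold of 0.1. The count called lower was 0 with no filter and 2 with trend and robust settings. Leaving out 1 array gave 1 to 4 higher and 0 to 1 lower. The count higher was 1 without male oil replicate 1, male E2 replicates 1 and 3 or female oil replicates 2 and 3, and the count lower was 0 without male oil replicate 2, male E2 replicate 2 or female oil replicate 3. In males, array weights called 1 higher (*Ndufb6*) and 1 lower (*Cox6b2*), as did a fit of the compared groups alone, which gave 1 and 1. Over all genes in males, array weights called 185 higher and 224 lower, against 57 and 86 in the main fit. The compared groups alone gave 196 and 194 over all genes. Leaving out 1 array gave 0 to 1 respiratory genes higher in males. In females, trend and robust settings called 1 higher (*Cox6b1*), a threshold of 0.1 called 2, and leaving out 1 array gave 0 to 2. Each 2 was *Ndufaf5* and *Cox7a1*, which entered the test only through its high group. Over all genes in females, trend and robust settings called 94 higher and 325 lower, against 81 and 274 in the main fit. A threshold of 0.1 called 174 and 483 over all genes.

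The male median of complex IV was 0.0544 with arrays centred and -0.0109 after quantile normalization. With arrays centred, the female medians were 0.0260 over all respiratory genes, 0.0108 for complex I subunits and 0.0402 for complex IV. Leaving out 1 array gave female medians from 0.0759 to 0.293 for assembly factors, from 0.00275 to 0.155 for complex III and from 0.0571 to 0.12 for complex IV, with the lowest values without female E2 replicate 1. The cause of these changes was not tested. Over all genes and averaged over the sexes, no filter gave 194 called higher and 374 lower and centring gave 202 and 516, against 311 and 576. Trend and robust settings gave 377 and 625, and a threshold of 0.1 gave 570 and 889.

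With the replicate block, 2 genes were called higher and 1 lower, and *Cycs* had an adjusted p of 0.0571. For deviations from the group means, r over 18 pairs of arrays of the same number ran from -0.26 to 0.20. In pairs of different numbers it ran from -0.33 to 0.28, and 0 of 12 arrays correlated best with their own number. With 3 arrays per group these values cannot decide whether arrays of the same number share a batch, and the labels used here name none. No array has a background or detection value in the data used here, and *Cox7a1* lies close to the filter.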

Other observations

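Probe sets annotated to both a respiratory gene and a near-identical copy were left out above, since their signal cannot be given to 1 gene. Probe sets annotated to 1 symbol were kept, and whether other copies share their signal was not tested. The 3 probe sets of *Cox7c* and *Gm12338* had averaged E2 effects of 0.05 each, the 2 of *Ndufb4* and *Ndufb4b* 0.07 and 0.06, and that of *Ndufs5* and its pseudogene 0.08, all on the log2 scale. Of 18 respiratory genes with several probe sets, 17 had the same sign of averaged effect on each probe set above the filter, and the exception was *Cox7a2l*, with 0.01 and -0.05.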
